A study of Mus musculus with 31 samples.

Results

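The 37 genes described here encode the glucose and lactate transporters, the enzymes and the regulators of glycolysis and the enzymes of the pentose phosphate pathway, together with Bpgm, which makes the red cell metabolite bisphosphoglycerate. They were taken as a fixed list of symbols, and each of the 37 matched 1 of the 45706 gene identifiers in the deposited count tables. Counts came from RNA-seq of long-term hematopoietic stem cells (HSC) and multipotent progenitors (MPP) sorted from the bone marrow of C57BL/6 mice aged 10 weeks. No genetic change is given in the labels. All mice had an intraperitoneal injection, either of β-glucan (1 mg), a polysaccharide of fungal cell walls, or of the saline PBS.

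The 31 libraries formed 8 groups. HSC taken 7 days after injection gave 3 β-glucan and 4 PBS libraries. HSC taken at day 28 gave 4 β-glucan and 4 PBS libraries, and MPP of the same day gave 4 and 4. A further 4 β-glucan and 4 PBS HSC libraries came from mice given 5-fluorouracil (5-FU, 150 mg/kg), a drug that kills dividing cells, on day 7 after injection, and sampled 14 days later. Both arms of that set received 5-FU. The labels do not say whether the replicates came from separate mice, and p-values then measure only how far libraries differ, which may be partly technical. The day and the 5-FU treatment were read from the make-up of each count table, and P and G in column names were read as PBS and β-glucan. The library titled as the first MPP library of PBS mice carries an HSC tag, and its title was followed.

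Libraries held 19331663 to 39485556 counts, and the 37 genes took 0.899 to 1.35% of them. All 10 HSC markers looked for (such as Procr, Mecom and Hlf) were detected in every HSC library, yet they summed to only 0.0185 to 0.140% of the counts there. Transcripts of cells outside the sort were abundant. 15 erythroid markers took 1.91 to 18.9% of counts and 14 markers of mature neutrophils took 5.34 to 19.9%. In such bulk libraries, fewer cells of a type and less RNA per cell cannot be told apart.

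Glycolysis splits glucose into pyruvate in the cytosol. Glucose enters through facilitative transporters, is trapped by a hexokinase, is committed by phosphofructokinase, and yields ATP at the phosphoglycerate kinase and pyruvate kinase steps. Pyruvate is either reduced to lactate by lactate dehydrogenase and exported through monocarboxylate transporters, or passed to the mitochondrion through pyruvate dehydrogenase, which the pyruvate dehydrogenase kinases switch off. The pentose phosphate pathway branches off at the first phosphorylated sugar and supplies NADPH and ribose. Hematopoietic stem cells in the marrow are known for relying on glycolysis under the hypoxia factor HIF-1α, and β-glucan is known for raising glycolysis in the monocytes it trains.

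Promoters of 36 of the 37 genes were available from RefSeq (build GRCm38.p6). They were searched over the 250 bases before the start site, on both strands, for the core of the hypoxia response element, written ACGTG or GCGTG, and for the GATA motif AGATAA of erythroid promoters. For a gene with several start sites only the most upstream was used, which need not be the one active in these cells. ACGTG and its reverse complement CACGT overlap in CACGTG, which counts as 2 matches. The 4 windows below are shown because Pgk1, Ldha and Pfkfb4, all textbook hypoxia-responsive genes, were higher in β-glucan HSC at day 7, whereas Bpgm was the member that fell most. Each is on the plus strand, read 5′ to 3′, with matches to either hypoxia core in capitals.
Pgk1, chrX:106186850-106187099: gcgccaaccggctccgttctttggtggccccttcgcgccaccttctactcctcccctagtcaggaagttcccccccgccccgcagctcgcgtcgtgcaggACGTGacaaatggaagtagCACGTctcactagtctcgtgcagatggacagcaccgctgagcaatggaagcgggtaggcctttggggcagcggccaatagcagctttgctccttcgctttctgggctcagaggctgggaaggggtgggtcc
Ldha, chr7:46845554-46845803: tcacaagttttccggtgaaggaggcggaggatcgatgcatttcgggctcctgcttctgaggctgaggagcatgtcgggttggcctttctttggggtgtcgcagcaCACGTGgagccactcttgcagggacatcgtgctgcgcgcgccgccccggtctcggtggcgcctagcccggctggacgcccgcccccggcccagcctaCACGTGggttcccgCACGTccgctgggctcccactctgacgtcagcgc
Pfkfb4, chr9:108991652-108991901: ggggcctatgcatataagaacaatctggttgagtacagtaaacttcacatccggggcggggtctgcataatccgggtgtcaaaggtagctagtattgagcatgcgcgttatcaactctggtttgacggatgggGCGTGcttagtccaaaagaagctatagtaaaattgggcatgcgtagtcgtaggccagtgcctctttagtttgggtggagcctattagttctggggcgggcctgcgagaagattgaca
Bpgm, chr6:34476106-34476355: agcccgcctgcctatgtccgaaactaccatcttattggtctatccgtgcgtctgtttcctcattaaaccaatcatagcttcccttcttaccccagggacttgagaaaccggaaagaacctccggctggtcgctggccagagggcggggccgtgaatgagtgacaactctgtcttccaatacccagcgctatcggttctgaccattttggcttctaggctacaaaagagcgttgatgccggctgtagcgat

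Pgk1 holds 2 matches and Ldha 5, all ACGTG, Pfkfb4 holds 1 GCGTG, and the Bpgm window holds none of the 3 motifs. Either hypoxia core was present in 10 of the 12 windows of members higher at day 7 (83.3%) and in 18 of the 24 windows of the other members (75.0%), against 38.6% of all 27025 promoter windows of that length. Among the members higher at day 7, Gpi1 and Pkm held neither core. ACGTG alone was in 5 of 12 (41.7%) and 8 of 24 (33.3%) windows, against 16.5% of all. AGATAA was in 0 of 12 and in 2 of 24 windows (Pfkm and Pklr), against 10.2% of all. A match describes letters in a window and is not evidence of binding.

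In HSC 7 days after injection, 12 of the 37 genes were higher in β-glucan libraries, 2 were lower and 23 were not called. Across the pathway, the risers ran from the glucose transporter Slc2a1 through Hk3, Gpi1, Pfkp, Aldoc, Pgk1, Pgam1, Eno1 and Pkm to Ldha, together with the regulator Pfkfb4 and with G6pdx of the pentose phosphate pathway. The genes that fell were Bpgm and the lactate transporter Slc16a1. Calls are an adjusted p under 0.05 in edgeR's quasi-likelihood test, fitted to all 16403 genes kept and adjusted over all of them by Benjamini-Hochberg. Of all genes tested 2.83% were called higher and 3.88% lower (6.72% in all). The median log2 fold change was 0.21 over the members and -0.01 over all genes. Groups did not overlap for 14 members higher in β-glucan and 2 lower, against 8.68% and 10.3% of all genes. The 12 risers changed by 0.30 to 0.65 on the log2 scale, less than the 1.37 by which Bpgm fell. Levels below are CPM, counts relative to the TMM-scaled total of the library, log2 fold changes are β-glucan over PBS ± standard error, and group means are ± SD.

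**Figure D1:**
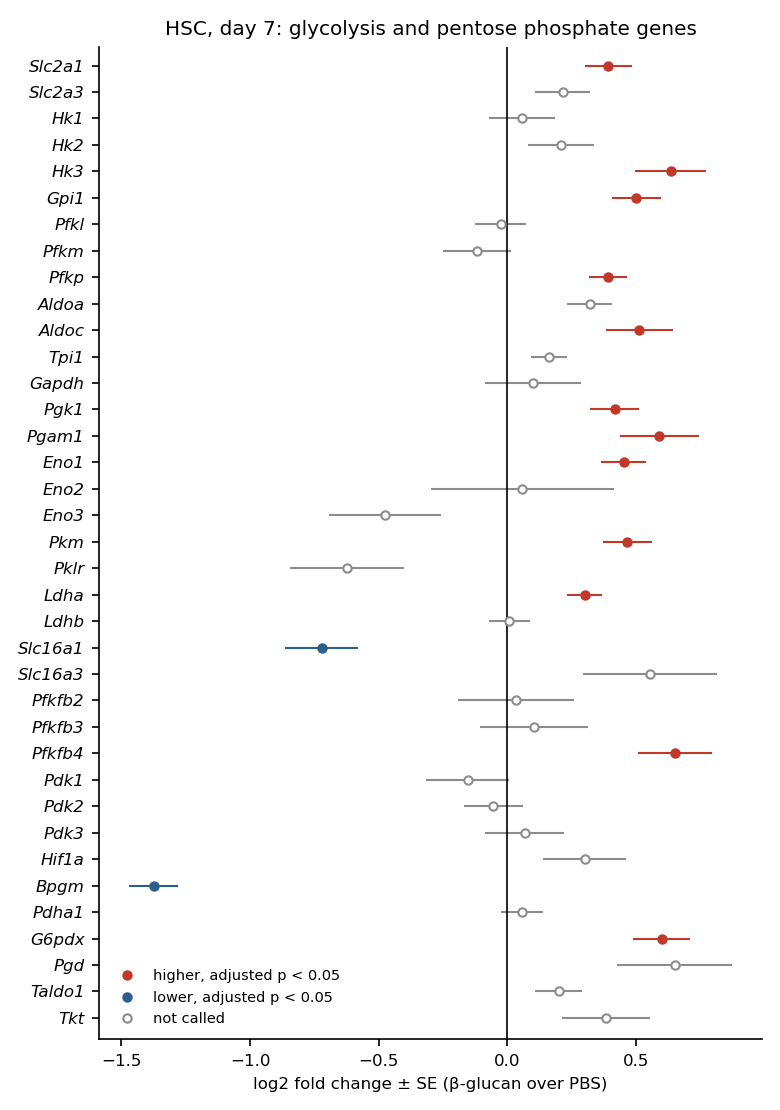
Log2 fold change (β-glucan over PBS) of the 37 genes in HSC at day 7, from edgeR, with bars of 1 standard error and called genes in colour. The 12 called higher lie between 0.30 and 0.65, Slc16a1 lies at -0.72 and Bpgm at -1.37.

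Glucose entry is served by Slc2a1 and Slc2a3, the transporters GLUT1 and GLUT3. Slc2a1 ran 43.6 to 47.9 CPM in β-glucan and 32.2 to 37.8 CPM in PBS libraries (0.39 ± 0.09, adjusted p = 0.026). Slc2a3, the more abundant of the pair per kilobase (55.4 against 13.2 CPM per kb in β-glucan libraries), was not called at 0.21 ± 0.11, with overlapping groups. Of the hexokinases, which trap glucose in the cell, Hk3 (chromosome 13, 55005985 to 55021385 in mm10) had 299, 469 and 349 CPM in the β-glucan libraries, against 267, 256, 222 and 215 CPM in the PBS libraries. Every β-glucan library lay above every PBS library, and the second was the highest. The log2 fold change of Hk3 was 0.64 ± 0.14 (adjusted p = 0.0186). Hk1 and Hk2, the other hexokinases tested, gave 0.06 ± 0.13 and 0.21 ± 0.13 and were not called.

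Gpi1 (chromosome 7, 34202122 to 34230289), the isomerase of the next step, had 778, 1032 and 913 CPM in β-glucan and 664, 672, 625 and 603 CPM in PBS libraries. The groups did not overlap, and the log2 fold change was 0.50 ± 0.10 (adjusted p = 0.01). Pfkp (chromosome 13, 6579768 to 6648777), the platelet-type phosphofructokinase, had 129, 126 and 122 CPM in β-glucan and 94.3, 98.1, 101 and 90.0 CPM in PBS libraries. Its 3 β-glucan values lay close together and above all PBS values (0.39 ± 0.07, adjusted p = 0.00885). The other subunits of that enzyme were not called, with -0.03 ± 0.10 for the liver type Pfkl and -0.12 ± 0.13 for the muscle type Pfkm. Pfkp made up 17.3 ± 1.63% of the summed per-kilobase level of the 3 subunits in β-glucan and 13.3 ± 1.68% in PBS libraries, with no overlap.

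Aldolase splits the sugar, and triose phosphate isomerase interconverts the triose products. Aldoc, the minor aldolase here, ran 26.5 to 32.2 CPM in β-glucan and 17.1 to 23.2 CPM in PBS libraries (0.51 ± 0.13, adjusted p = 0.0377). Aldoa, the main one, just missed the call: it ran 1567 to 2015 CPM in β-glucan and 1407 to 1417 CPM in PBS libraries, without overlap (0.32 ± 0.09, adjusted p = 0.0542). Tpi1 likewise did not overlap but was not called (0.16 ± 0.07, adjusted p = 0.216). For Gapdh, the next enzyme, the files list only 7.04 ± 0.572 CPM in β-glucan and 6.56 ± 1.14 CPM in PBS libraries (n = 3 and 4), and the copies that share its sequence are described further on.

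Further down the pathway, Pgk1, whose promoter is printed above, ran 28.2 to 30.4 CPM in β-glucan and 21.8 to 22.5 CPM in PBS libraries (0.42 ± 0.09, adjusted p = 0.0234). Pgam1, the mutase, ran 10.1 to 11.2 CPM in β-glucan and 6.04 to 7.51 CPM in PBS libraries (0.59 ± 0.15, adjusted p = 0.0411). Eno1 (chromosome 4, 150236721 to 150248879), the main enolase, had 502, 639.7 and 559 CPM in β-glucan and 423, 429, 406 and 398 CPM in PBS libraries. All PBS values lay within a narrow range below the lowest β-glucan value, and the log2 fold change was 0.45 ± 0.09 (adjusted p = 0.0107). The muscle enolase Eno3 ran the other way at -0.48 ± 0.22 without being called (adjusted p = 0.249), and Eno1 took 95.2 ± 0.839% of the enolase level per kilobase in β-glucan and 91.7 ± 1.87% in PBS libraries. Pkm (chromosome 9, 59656368 to 59679375), which makes pyruvate and ATP, had 2226, 2867 and 2405 CPM in β-glucan and 1889, 1878, 1783 and 1682 CPM in PBS libraries. Reads that match both a gene and its copies cannot be placed for certain, so listed counts do not rank Gapdh, Pgk1, Pgam1 and Eno1. The copies summed held few of the listed counts at day 7. In β-glucan libraries they held 13.0 CPM for Gapdh, 2.02 for Pgk1, 1.98 for Pgam1, 45.8 for Eno1 and 153 for Pkm. By listed counts Pkm had the highest level per kilobase of the 37 genes, with 962 in β-glucan and 696 CPM per kb in PBS libraries. The groups did not overlap (0.47 ± 0.09, adjusted p = 0.0131), whereas Pklr, the pyruvate kinase of liver and red cells, stood at -0.62 ± 0.22 and was not called (adjusted p = 0.129).

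Genes of lactate handling changed in both directions at day 7. Ldha (chromosome 7, 46841475 to 46855627), the dehydrogenase subunit that favours lactate, had 895, 944 and 953 CPM in β-glucan and 743, 762, 761 and 755 CPM in PBS libraries, without overlap (0.30 ± 0.07, adjusted p = 0.0229). The heart-type subunit Ldhb was not called at 0.01 ± 0.08, and Ldha held 76.6 ± 2.12% of the Ldha and Ldhb level per kilobase in β-glucan and 72.7 ± 0.836% in PBS libraries. Slc16a1 (chromosome 3, 104638668 to 104658462), the monocarboxylate transporter MCT1, had 28.4, 17.7 and 26.0 CPM in β-glucan and 39.5, 40.6, 39.4 and 39.1 CPM in PBS libraries. The 4 PBS values were nearly equal and all β-glucan values lay below them, the second library lowest (-0.72 ± 0.14, adjusted p = 0.0121). Erythroid markers were also lower in the β-glucan libraries, and their part in this fall was not tested. Slc16a3, the exporter MCT4, had 14.6, 28.0 and 38.5 CPM in β-glucan and 23.3, 17.2, 17.4 and 15.5 CPM in PBS libraries. These overlapped, and 0.56 ± 0.26 was not called (adjusted p = 0.262).

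Among the regulators, Pfkfb4 (chromosome 9, 108991778 to 109032228), which sets the level of the activator of phosphofructokinase, had 79.9, 128 and 100.3 CPM in β-glucan and 71.5, 65.7, 69.3 and 54.8 CPM in PBS libraries. Groups were apart, with the second β-glucan library highest (0.65 ± 0.14, adjusted p = 0.02). Its relatives Pfkfb2 and Pfkfb3 were not called (0.03 ± 0.23 and 0.10 ± 0.21). None of the pyruvate dehydrogenase kinases Pdk1, Pdk2 and Pdk3 was called, with -0.15 ± 0.16, -0.05 ± 0.12 and 0.07 ± 0.15, nor was Pdha1, the enzyme subunit they phosphorylate (0.06 ± 0.08). Hif1a, the hypoxia factor itself, gave 0.30 ± 0.16 with overlapping groups (adjusted p = 0.341).

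In the pentose phosphate pathway, G6pdx (chromosome X, 74409483 to 74429194), the rate-limiting first enzyme, had 278, 402 and 339 CPM in β-glucan and 227, 235, 222 and 214 CPM in PBS libraries. The lowest β-glucan value was above the highest PBS value, and the log2 fold change was 0.60 ± 0.11 (adjusted p = 0.0075). Pgd, the other NADPH-forming enzyme, had 433, 849 and 703 CPM in β-glucan and 518, 390.0, 491 and 288 CPM in PBS libraries. That was as large a difference as for any riser, 0.65 ± 0.22, but with overlap and a wide spread, and it was not called (adjusted p = 0.116). Tkt and Taldo1, which reshuffle the sugars, gave 0.38 ± 0.17 and 0.20 ± 0.09 and were not called either (adjusted p = 0.24 and 0.257).

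Bpgm (chromosome 6, 34476207 to 34505613), known for its role in red cells, where its product lowers the oxygen affinity of hemoglobin, was the member that differed most. It had 399, 377 and 437 CPM in the β-glucan libraries and 1005, 1017, 1196 and 972 CPM in the PBS libraries (404 ± 30.5 and 1048 ± 101, SD, n = 3 and 4). The groups lay far apart, and the log2 fold change was -1.37 ± 0.10 (adjusted p = 2.27e-05). Erythroid markers moved with it: 13 of 15 were called lower, with a median log2 fold change of -1.30, and their summed share of counts ran 1.91 to 2.62% in β-glucan and 6.02 to 7.46% in PBS libraries. No erythroid marker was at 0. Their part in the Bpgm and Slc16a1 results was not tested.

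Markers of myeloid cells moved with the genes that rose. Of the 14 neutrophil markers 10 were called higher (median 0.77) and of the 7 markers of granulocyte and monocyte precursors all 7 (median 1.00), and none of either list was at 0 in any library. Neutrophil markers summed to 8.14, 11.8 and 9.70% of counts in the 3 β-glucan libraries and to 5.67 to 6.46% in the PBS libraries, precursor markers to 1.06 to 1.54% in β-glucan and 0.650 to 0.784% in PBS libraries. Of the 12 risers, 8 were highest in the β-glucan library with the largest neutrophil share and 9 lowest in the one with the smallest. Hk3, Gpi1, Pgk1, Eno1, Pkm, Pfkfb4 and G6pdx did both, whereas Pfkp, Ldha, Slc2a1, Aldoc and Pgam1 did not. Of the 23 members not called, 7 did both, among them Aldoa, Pgd, Tkt and Taldo1. This order of 3 libraries was not counted over all genes, so it does not sort the risers by cell of origin. None of the 10 HSC markers was called, and 7 of 8 B cell markers were lower (median -1.51, 0.112 to 0.152% of counts in β-glucan and 0.204 to 0.226% in PBS libraries). Of the other lists, 2 of 4 MPP markers were lower, and 2 of 7 monocyte and macrophage and 1 of 6 T and NK cell markers were higher. The part of other cells in the 12 higher calls was not tested.

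The number of risers depended on single libraries. It was 4 without the third β-glucan library, 5 without the second, 7 without the first PBS library and 6 without the second, whereas 2 members were lower in all 7 such fits. Bpgm, Slc16a1, Eno1, G6pdx, Pfkp and Pkm were called in all 7, Gpi1 in 6, Hk3 and Pfkfb4 in 4, Pgk1 and Ldha in 3, Slc2a1 in 2, and Aldoc and Pgam1 in 1.

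**Figure D2:**
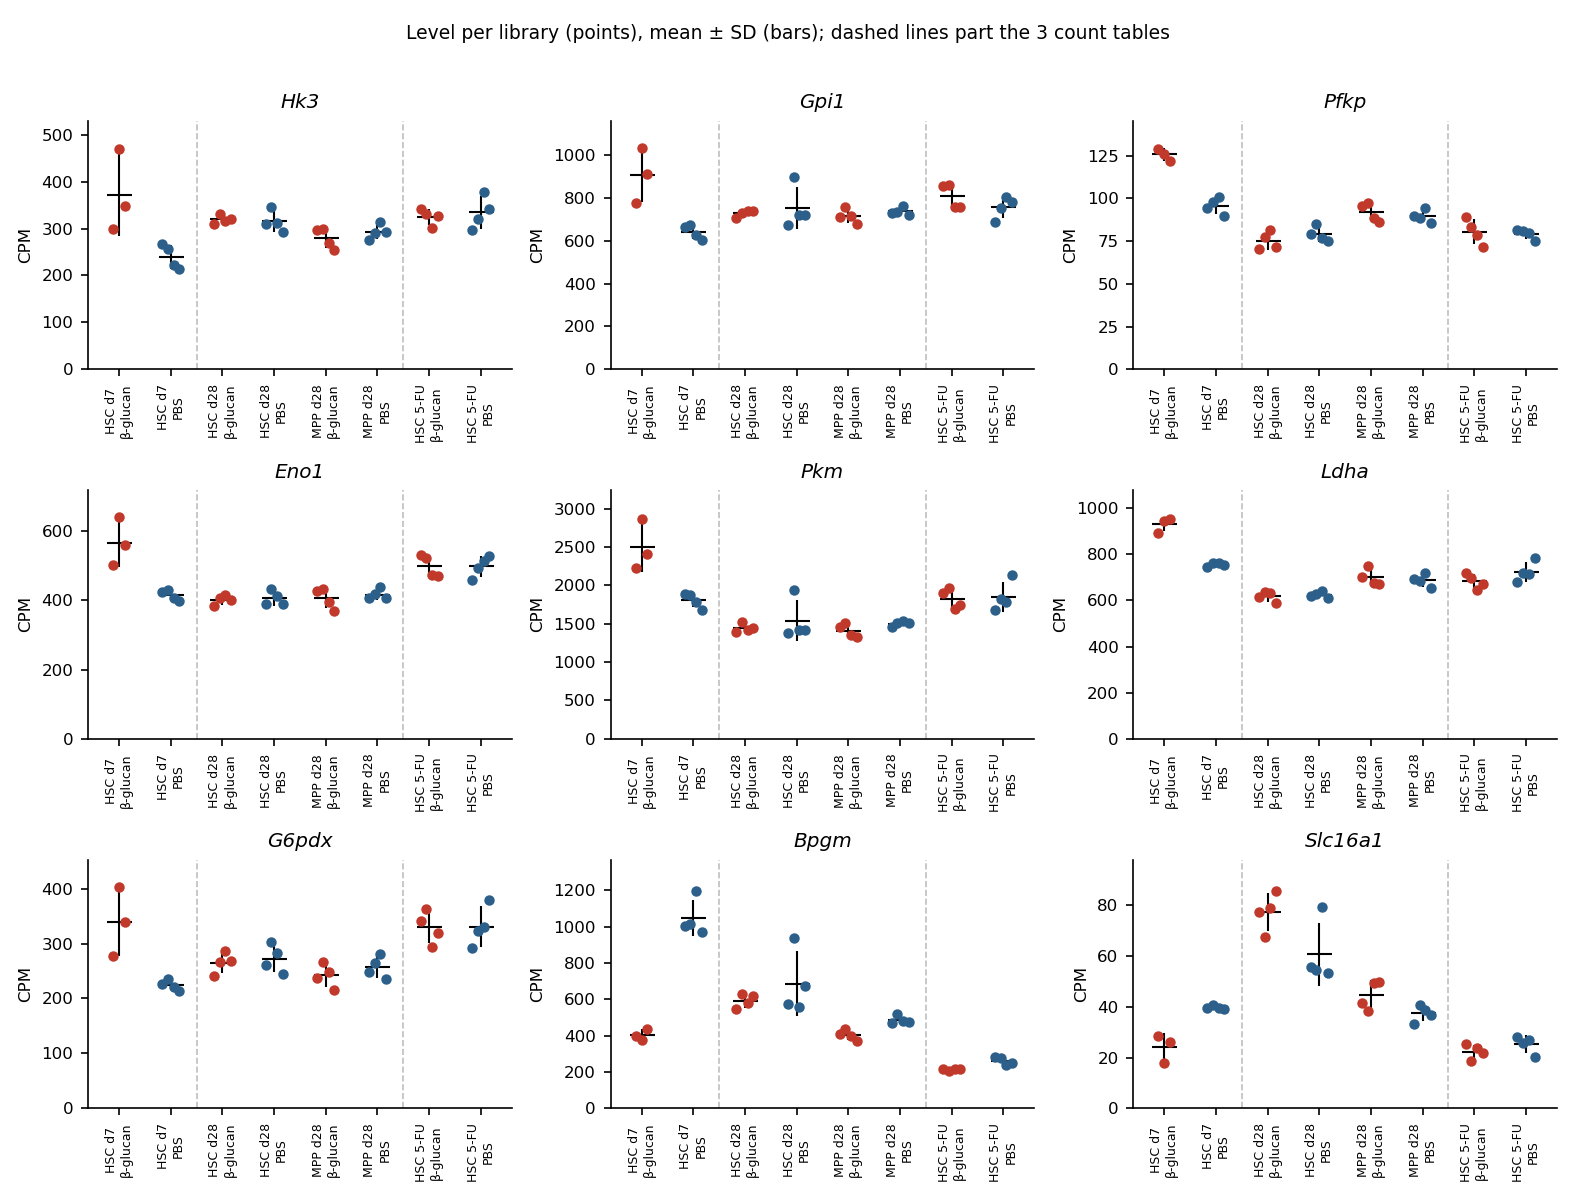
CPM per library of 9 members in the 8 groups (red, β-glucan; blue, PBS; black bars, mean ± SD), with dashed lines between the 3 count tables, whose levels were scaled separately. At day 7 the β-glucan libraries lie apart from the PBS libraries in all 9 panels, and at day 28 the second PBS HSC library stands out for Pkm at 1945 CPM.

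In HSC at day 28, none of the 37 genes was called. Only 6 of 16025 genes were called (0.0374%, all higher). Changes of the members ran both ways, 17 positive and 20 negative, with a median log2 fold change of -0.03 against -0.02 over all genes. The 12 day 7 risers stood at -0.51 to 0.16 here, 2 positive and 10 negative, Bpgm at -0.23 ± 0.15 and Slc16a1 at 0.34 ± 0.13. Before adjustment 7 members, and 2729 of all genes, had p under 0.05, and the lowest adjusted p of a member was 0.148 by edgeR. DESeq2's Wald test called 589 genes, of which 2 were members. No cell type marker was called by edgeR. Precursor markers took 1.20 to 1.39% of counts in β-glucan and 0.983 to 1.06% in PBS libraries. Erythroid markers took 15.5 to 17.4% in β-glucan and 18.0 to 18.9% in PBS libraries, and neutrophil markers 6.30 to 7.18% and 7.21 to 7.94%. Unadjusted p was under 0.05 for 7 of 7, 3 of 15 and 7 of 14 of these markers. Their part in the member values was not tested.

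The member nearest to a call was the hexokinase Hk2, with 50.1, 48.7, 46.8 and 50.1 CPM in β-glucan and 42.6, 35.4, 42.8 and 35.4 CPM in PBS libraries (0.31 ± 0.09, adjusted p = 0.148). All 4 β-glucan libraries lay above the PBS libraries. Slc16a3 was placed in the same way, with 38.9, 44.7, 42.0 and 54.7 CPM in β-glucan and 38.3, 28.2, 34.0 and 36.0 CPM in PBS libraries (0.39 ± 0.12, adjusted p = 0.172). Pdha1 was the reverse, 79.7 to 90.8 CPM in β-glucan and 95.1 to 118 CPM in PBS libraries (-0.26 ± 0.09, adjusted p = 0.183). In all, 2 members lay wholly above and 1 wholly below, against 4.31% and 4.52% of all genes. Here the second PBS library stood apart, with Pkm at 1945 CPM against 1375 to 1422 CPM in the other 3, Pfkfb4 at 131 against 62.6 to 69.3 CPM, and the lowest summed share of HSC markers (0.0185%). Without it 51 genes were called, and members called were 0 with any 1 library left out. Without it and the third β-glucan library, 669 genes were called and 1 member, which was lower.

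In MPP at day 28, Pdk3 and Pdk2, kinases that restrain pyruvate dehydrogenase, were higher with β-glucan, and Eno3, Bpgm and Pfkfb4 were lower. Of 36 members tested (Eno2 was below the count filter), 2 were called higher and 3 lower, against 2.72% and 1.91% of the 15828 genes tested (4.63% in all). The median log2 fold change was -0.04 over the members and -0.0014 over all genes. Pdk3 had 14.1, 10.6, 20.4 and 23.3 CPM in β-glucan and 10.1, 10.2, 9.96 and 9.05 CPM in PBS libraries. All 4 β-glucan values were higher, though widely spread (0.79 ± 0.20, adjusted p = 0.0402). Pdk2 had 6.15, 6.17, 8.98 and 9.39 CPM in β-glucan and 4.52, 4.62, 5.53 and 5.42 CPM in PBS libraries, again without overlap (0.61 ± 0.16, adjusted p = 0.0484). Pdk1, the hypoxia-responsive kinase, was not called (0.06 ± 0.10).

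Of the genes that fell in MPP, Eno3 had 6.59, 7.80, 7.89 and 6.41 CPM in β-glucan and 9.03, 11.0, 13.4 and 10.4 CPM in PBS libraries (-0.62 ± 0.12, adjusted p = 0.0181). The groups did not overlap. Bpgm had 411, 434, 401 and 372 CPM in β-glucan and 468, 522, 481 and 475 CPM in PBS libraries, also apart (-0.27 ± 0.05, adjusted p = 0.0171). Pfkfb4 had 52.8, 51.6, 52.2 and 44.2 CPM in β-glucan and 54.6, 61.9, 61.4 and 60.3 CPM in PBS libraries (-0.25 ± 0.06, adjusted p = 0.0404), the opposite direction to day 7 HSC, though the difference between these settings was not tested. Hk1, which was higher in all β-glucan libraries, and Aldoc, which was lower in all, were not called (0.22 ± 0.07 and -0.36 ± 0.12). In all, 3 members lay wholly above and 4 wholly below, against 7.11% and 5.24% of all genes.

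Without the second or the third PBS MPP library, 0 members were called in either direction, and the 2 higher calls were lost without any single PBS library and without the third or the fourth β-glucan library. The lower call of Pfkfb4 was also kept in only 2 of the 8 fits with 1 library left out (adjusted p up to 0.119), and those of Eno3 and Bpgm in 6. Without the first β-glucan library 4 members were higher. Cell type markers moved here too: 8 of 14 neutrophil markers were lower (5.34 to 6.31% of counts in β-glucan and 6.37 to 7.59% in PBS libraries), 5 of 7 precursor markers higher (1.26 to 1.30% in β-glucan and 1.05 to 1.11% in PBS libraries) and 6 of 8 B cell markers lower (0.293 to 0.390% in β-glucan and 0.325 to 0.407% in PBS libraries). Megakaryocyte markers were higher in 3 of 4 (0.00713 to 0.0116% in β-glucan and 0.00521 to 0.00591% in PBS libraries), and T and NK cell markers were lower in 3 of 6, although their summed share ran 0.0492 to 0.0557% in β-glucan and 0.0442 to 0.0510% in PBS libraries. Of the monocyte and macrophage markers 1 of 7 was lower, and of the MPP markers 1 of 4 was higher. Of the 15 erythroid markers 1 was called, higher, and their summed share ran 12.3 to 15.7% in β-glucan and 15.0 to 17.8% in PBS libraries. Their part in the Bpgm and Eno3 results was not tested.

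After 5-FU, none of the 37 genes was called in β-glucan HSC. Only 7 of 15705 genes were (0.0446%), 0.0382% higher and 0.00637% lower. Of the members 12 were positive and 25 negative, and 4 of 37 had an unadjusted p under 0.05, against 1184 of all genes, by edgeR. Bpgm had 219, 206, 218 and 217 CPM in β-glucan and 282, 279, 236 and 252 CPM in PBS libraries. The highest β-glucan value lay below the lowest PBS value (-0.29 ± 0.07, adjusted p = 0.182), the same side as in the other 3 settings. Pklr had 3.15, 2.59, 2.87 and 3.59 CPM in β-glucan and 4.25, 4.15, 4.18 and 5.74 CPM in PBS libraries (-0.58 ± 0.17, adjusted p = 0.359). These were the 2 members whose groups did not overlap, both lower, and none lay wholly above (2.2% and 2.41% of all genes). Erythroid markers took 9.24 to 12.3% of counts in β-glucan and 12.4 to 16.1% in PBS libraries, and 0 of 15 were called. By edgeR 10 of the 15 had an unadjusted p under 0.05, and their median log2 fold change was -0.33. Their part in the Bpgm and Pklr values was not tested. DESeq2 called 147 genes, of which 1 was a member, lower.

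**Figure D3:**
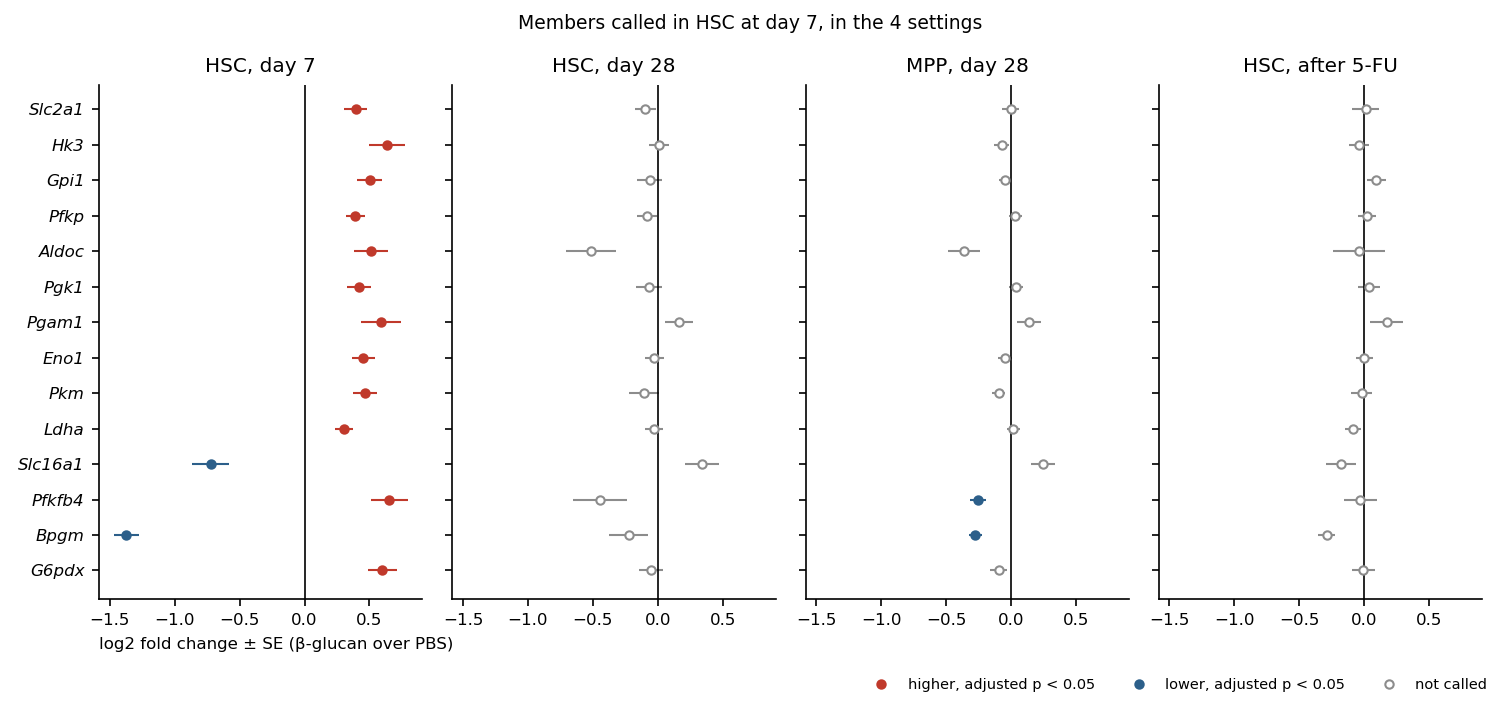
Log2 fold change (β-glucan over PBS, bars of 1 standard error) of the 14 members called in HSC at day 7, in that setting, in HSC and MPP at day 28 and in HSC after 5-FU. Pfkfb4 is above 0 at day 7 and below it in MPP, and Bpgm is below 0 in all 4 settings.

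The difference between the β-glucan effects at day 7 and at day 28 in HSC was tested as a contrast of the 4 groups. The day 7 effect was higher for 11 members and lower for 2, against 2.58% and 2.24% of the 17977 genes tested (4.82% in all), and the median difference was 0.24 over the members and 0.02 over all genes. These were the 14 members called at day 7 except Pgam1 (0.45 ± 0.17, adjusted p = 0.147). Among the smallest adjusted p were Bpgm (-1.12 ± 0.20, adjusted p = 0.0033), Slc16a1 (-1.04 ± 0.20, adjusted p = 0.00661), Pfkp (0.50 ± 0.10, adjusted p = 0.00953) and G6pdx (0.68 ± 0.15, adjusted p = 0.0131). The 2 sets were counted in separate tables, so day and set cannot be told apart. Eno1, Pgk1 and Pkm have copies that took different shares of the counts in the 2 sets. This contrast was not refitted with copies summed. The count of higher differences was 2 without the second β-glucan library of day 7, 5 without the first β-glucan library of day 28, 6 without the third β-glucan library of day 7 and 7 without the second or the fourth PBS library of day 7 or without the second β-glucan library of day 28, while Bpgm, Slc16a1, Pfkp and G6pdx were called in all 15 such fits. Ldha was called in 4 of them, Pkm in 5, Pgk1 in 8 and Pfkfb4 in 9. Cell type markers differed in the same contrast. Neutrophil markers were higher in 10 of 14, precursor markers in 3 of 7 and monocyte and macrophage markers in 1 of 7, whereas erythroid markers were lower in 11 of 15 and B cell markers in 7 of 8 (median -1.11). Their part was not tested.

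The β-glucan effect did not differ detectably between MPP and HSC at day 28 for any of the 36 members tested, and 1 gene of 16691 was called in all (0.00599%, lower). By unadjusted p under 0.05 there were 1033 genes, and DESeq2 called 2. Nor was a difference called for any of the 37 members between HSC after 5-FU and HSC at day 28, where 18 of 16985 genes were (0.106%, with 0.053% in each direction), against 1920 by unadjusted p under 0.05 and 151 by DESeq2. For Bpgm, the effect in MPP minus that in HSC was -0.05 ± 0.17 and for Pdk3 0.18 ± 0.29.

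MPP and HSC of the same treatment were compared at day 28, and the called members of largest change in both arms were transporters. In mice given β-glucan, 4 members were higher in MPP than in HSC and 8 lower, against 17.7% and 18.0% of the 15945 genes tested (35.6% in all). In mice given PBS, 1 was higher and 7 lower, against 9.58% and 12.1% of 16122 genes (21.7% in all). The share of the 36 members called was thus close to that of all genes in both arms. Slc16a1, Slc16a3, Slc2a3 and Bpgm were lower and Tpi1 was higher in both arms. The libraries did not overlap for 5 members above and 8 below with β-glucan, against 16.9% of all genes in each direction, and for 4 above and 8 below with PBS, against 13.3% and 13.2%. The medians were -0.11 over the members and -0.01 over all genes with β-glucan, and -0.08 and -0.02 with PBS.

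Slc16a3, the lactate exporter of glycolytic cells, had 19.3, 24.1, 26.0 and 25.7 CPM in MPP and 38.9, 44.7, 42.0 and 54.7 CPM in HSC of mice given β-glucan (-0.92 ± 0.12, adjusted p = 0.000304). With PBS it had 16.7, 19.0, 21.2 and 17.0 CPM in MPP and 38.3, 28.2, 34.0 and 36.0 CPM in HSC (-0.90 ± 0.11, adjusted p = 0.000305). The cell types did not overlap in either arm. Slc16a1 had 41.4, 38.2, 49.2 and 49.7 CPM in MPP and 77.4, 67.4, 79.1 and 85.7 CPM in HSC with β-glucan (-0.79 ± 0.10, adjusted p = 0.000268). In PBS mice it had 33.2, 40.8, 38.9 and 36.9 CPM in MPP and 55.5, 54.3, 79.2 and 53.3 CPM in HSC (-0.70 ± 0.13, adjusted p = 0.00308), again apart. The glucose transporter Slc2a3 had 197, 186, 175 and 177 CPM in MPP and 309.7, 359.9, 272 and 315 CPM in HSC with β-glucan (-0.77 ± 0.08, adjusted p = 7.35e-05), and 186, 225, 211 and 220.3 CPM in MPP and 291, 458, 271 and 311 CPM in HSC with PBS (-0.67 ± 0.14, adjusted p = 0.00719). No MPP value reached an HSC value. Slc2a1 did not differ detectably (0.01 ± 0.07 with β-glucan and -0.08 ± 0.08 with PBS), and its share of the level of both transporters per kilobase was 22.7 ± 1.80% in MPP and 14.6 ± 1.98% in HSC with β-glucan, and 20.4 ± 1.79% in MPP and 15.0 ± 3.14% in HSC with PBS.

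Bpgm had 411, 434, 401 and 372 CPM in MPP and 545, 632, 577 and 617 CPM in HSC with β-glucan (-0.55 ± 0.07, adjusted p = 0.000177), and 468 to 522 CPM in MPP and 557 to 940.4 CPM in HSC with PBS (-0.51 ± 0.14, adjusted p = 0.0251). The call in PBS mice was lost without the first, the third or the fourth PBS MPP library, and without the second PBS HSC library the change was -0.32 ± 0.07 (adjusted p = 0.00465). Tpi1, the isomerase of the triose step, had 220.4, 219, 203 and 208 CPM in MPP and 196, 188, 166 and 183 CPM in HSC with β-glucan (0.22 ± 0.06, adjusted p = 0.0146), and 218, 208, 211 and 216 CPM in MPP and 167, 179, 164 and 169 CPM in HSC with PBS (0.32 ± 0.06, adjusted p = 0.00291). It was the one enzyme of the core pathway higher in MPP of both arms, though the call with β-glucan was lost without the first β-glucan MPP library.

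Further members were called in 1 arm in the fits without the block, and whether the arms differ in this was tested only through the contrast of the β-glucan effects given above, which called no member. With β-glucan, Pdha1 (0.40 ± 0.06), Pfkp (0.30 ± 0.06) and Ldha (0.18 ± 0.06) were higher in MPP, and Hif1a (-0.41 ± 0.10), Hk2 (-0.39 ± 0.07), Pfkfb4 (-0.26 ± 0.08) and Hk3 (-0.19 ± 0.06) lower. With PBS, Pdk2 (-0.63 ± 0.13), Pdk3 (-0.62 ± 0.09) and Hk1 (-0.25 ± 0.07) were lower. Same-numbered MPP and HSC libraries deviated together in the β-glucan arm, and with the replicate as a block 13 members were lower there and 5 higher. The calls added by the block were Pfkl (0.20 ± 0.05, adjusted p = 0.0142), higher, and Pdk3 (-0.44 ± 0.07, adjusted p = 0.00107), Aldoa (-0.18 ± 0.06), Pfkfb3 (-0.20 ± 0.07), Hk1 (-0.15 ± 0.05) and Ldhb (-0.16 ± 0.06), lower, so that Pdk3 and Hk1 were then called in both arms. With 1 library left out, Hk1 was called in only 2 of 8 fits in the PBS arm, and Ldha in 3, Hk3 in 4 and Pfkfb4 in 6 of 8 in the β-glucan arm, while the other members called in 1 arm without the block were called in all 8. In the PBS arm, 4 members were higher without the second HSC library and 2 without the first or the third HSC library or the first MPP library. Without the first β-glucan MPP library 2 were higher in the β-glucan arm.

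The sort was visible in the markers. Of the HSC markers 7 of 10 were lower in MPP with β-glucan and 6 of 9 with PBS, and 4 of 4 and 3 of 4 MPP markers (such as Flt3 and Cd48) were higher. Megakaryocyte markers were lower too, 5 of 5 with β-glucan (median -1.92) and 4 of 4 with PBS (median -2.28), as were 13 of the 15 erythroid markers with β-glucan and 9 with PBS. Megakaryocyte markers took 0.00713 to 0.0116% of counts in MPP and 0.0162 to 0.0553% in HSC with β-glucan, and 0.00521 to 0.00591% in MPP and 0.0137 to 0.0400% in HSC with PBS. Erythroid markers took 12.3 to 15.7% in MPP and 15.5 to 17.4% in HSC with β-glucan, and 15.0 to 17.8% in MPP and 18.0 to 18.9% in HSC with PBS. Mature neutrophil markers were lower in 9 of 14 with β-glucan (5.34 to 6.31% in MPP and 6.30 to 7.18% in HSC) and in 4 of 14 with PBS (6.37 to 7.59% in MPP and 7.21 to 7.94% in HSC). B cell markers were higher in 2 of 8 with β-glucan (0.293 to 0.390% in MPP and 0.132 to 0.175% in HSC) and in 4 of 8 with PBS (0.325 to 0.407% in MPP and 0.148 to 0.195% in HSC). Of the 7 precursor markers 1 was higher and 2 lower with β-glucan, and 1 higher and 1 lower with PBS. Of the 7 monocyte and macrophage markers 1 was higher and 2 lower with β-glucan, and 2 lower with PBS. Of the 6 T and NK cell markers 0 were called by edgeR in either arm (1 with an unadjusted p under 0.05 with β-glucan and 0 with PBS). Gp1bb of the megakaryocyte list was at 0 in at least 1 PBS MPP library, and Hoxb5 of the HSC list in at least 1 β-glucan MPP library. Their part in the lower Bpgm and transporter levels of MPP was not tested.

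**Figure D4:**
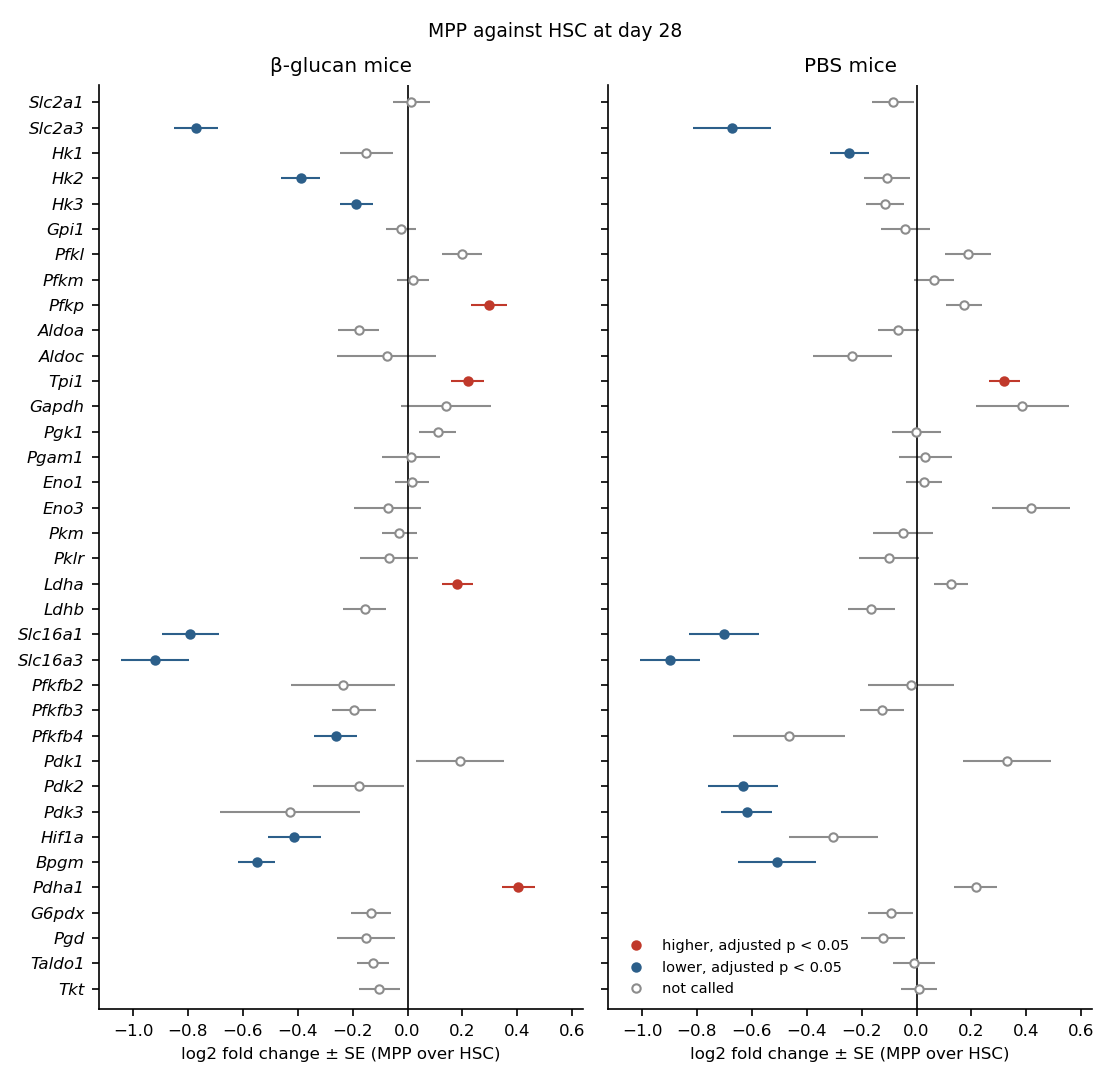
Log2 fold change of the members in MPP over HSC at day 28, in mice given β-glucan (left) and PBS (right), with bars of 1 standard error and called genes in colour. Slc16a3 lies lowest in both panels, at -0.92 and -0.90, and Tpi1 is called higher in both.

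Several members have near-identical copies elsewhere in the genome, and reads that match both cannot be placed for certain. The share of 50-base windows of the member's transcripts that also occur at other loci was 53.9% for Pgk1, 36.2% for Pgam1, 26.0% for Eno1, 25.8% for Pkm, 24.7% for Gapdh and 21.0% for Ldhb, and under 10% for the other 31. Where the counts of such a family fell differed between the tables. Of the summed CPM of Eno1 and its copies, Eno1 itself held 92.5% in β-glucan and 92.5% in PBS libraries at day 7, but 25.5% in β-glucan and 25.4% in PBS HSC at day 28. Pgk1 held 93.6% of its family in β-glucan and 93.7% in PBS libraries at day 7, and 8.10% in β-glucan and 7.71% in PBS HSC at day 28. Levels of these genes in different tables are therefore not comparable. Gapdh held 35.3% in β-glucan and 38.9% in PBS libraries at day 7, and 3.60% in β-glucan and 3.41% in PBS HSC at day 28 over the 29 copies summed here. At day 28, 1 copy, Gm13394, averaged 54.8 CPM in β-glucan and 53.5 CPM in PBS HSC, of 71.7 and 70.4 CPM on all 29. The low values listed for Gapdh are thus not a measure of its level. Within a table the β-glucan and PBS shares lay close together, and summing each member with its copies left every call of the 14 at day 7 in place.

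**Figure D5:**
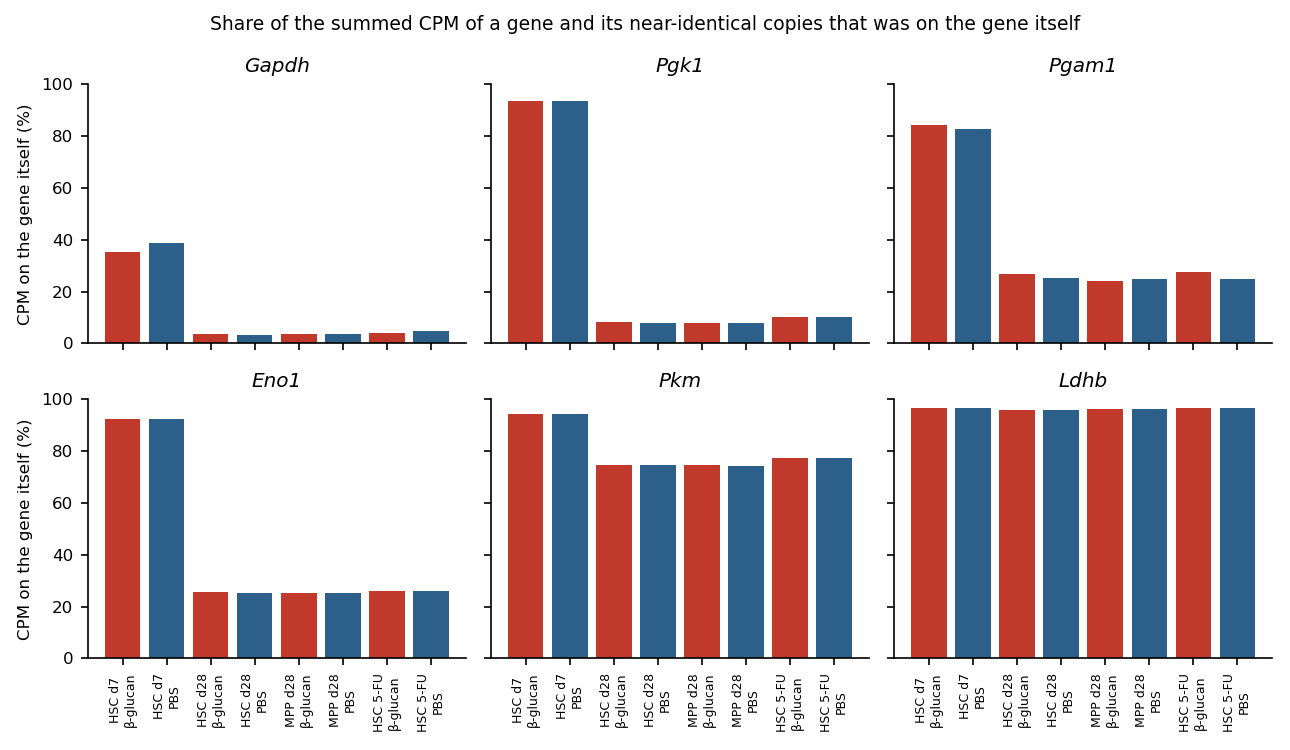
Percent of the summed CPM of a gene and its copies that lies on the gene itself, for 6 members in the 8 groups. Eno1, Pgk1 and Pgam1 hold 82.9 to 93.7% at day 7 and 7.71 to 27.7% in the other 2 tables, while Ldhb holds 95.8 to 96.7% throughout.

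Of 50 further genes of the same pathways, 42 were tested in HSC at day 7. Rpe, an enzyme of the pentose phosphate pathway, was higher (0.36 ± 0.09, adjusted p = 0.0347) and Slc2a4, the insulin-regulated glucose transporter, lower (-1.13 ± 0.19, adjusted p = 0.00539), and the other 40 were not called. In MPP at day 28, 3 of 39 were called, with Dlat, a pyruvate dehydrogenase subunit, higher at 0.54 ± 0.11, Minpp1, a phosphatase known to cleave bisphosphoglycerate, higher at 0.46 ± 0.11, and the transporter Slc2a6 lower at -0.31 ± 0.07. None was called of 41 in HSC at day 28 or of 42 after 5-FU. Of all genes tested, 6.72% were called in HSC at day 7 and 4.63% in MPP. Between MPP and HSC, 5 of 40 listed genes were higher and 10 lower with β-glucan, against 17.7% and 18.0% of all genes. With PBS 1 of 40 was higher and 10 lower, against 9.58% and 12.1% of all genes. Prps2, which turns ribose phosphate into the nucleotide precursor PRPP, was higher in both arms (0.77 ± 0.09 with β-glucan and 0.52 ± 0.07 with PBS). Bsg, the chaperone that carries Slc16a1 and Slc16a3 to the membrane, was lower in both (-0.52 ± 0.07 with β-glucan and -0.62 ± 0.10 with PBS).

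Of 25 genes of the HIF system, 24 were tested in HSC at day 7. Bhlhe40, a hypoxia-responsive repressor, was higher (0.63 ± 0.12, adjusted p = 0.0088) and Bnip3l, which clears mitochondria in maturing red cells, lower (-0.62 ± 0.10, adjusted p = 0.00396). In MPP at day 28, Myc, an activator of glycolytic genes, was the one called of 24 (0.30 ± 0.07, adjusted p = 0.0297). None was called of 23 in HSC at day 28 or of 24 after 5-FU. Of all genes tested, 6.72% were called in HSC at day 7 and 4.63% in MPP. Between MPP and HSC, 4 of 23 listed genes were higher and 8 lower with β-glucan, against 17.7% and 18.0% of all genes. With PBS 1 of 24 was higher and 7 lower, against 9.58% and 12.1% of all genes. Epas1, which encodes HIF-2α, was lower in MPP (-1.57 ± 0.18 with β-glucan and -1.52 ± 0.24 with PBS), and Myc was higher (0.78 ± 0.07 with β-glucan and 0.57 ± 0.08 with PBS). At day 7 the median log2 fold change was 0.04 over this list and 0.21 over the 37 genes, a difference that was not tested.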

How the data were processed

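The authors deposited raw counts per gene, not normalized, in 3 tables (7, 16 and 8 libraries). Per the submitters' processing notes they used bcl2fastq 1.8.4, featureCounts and the build mm10, and per the labels' protocols the libraries came from a SMARTer Ultra kit, in which strand is not marked, so that antisense and overlapping genes are uncertain. For the aligner, no name is given in the sources used here. Symbols came from GENCODE M21 (45143 of 45706 identifiers; the other 563 held 0.0574 to 0.0908% of counts). No column was left out: 0 columns of per-library values were unused. None of 45 replicate pairs was a duplicate (chi-square per gene 6.75 to 50.3).

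Genes were kept by filterByExpr (minimum count 10), scaled by TMM and tested with the quasi-likelihood test of edgeR 4.0.16 (limma 3.58.1, R 4.3.3) on the groups compared. Adjustment was by Benjamini-Hochberg over all genes, with a threshold of 0.05. The standard error is the absolute log2 fold change divided by the square root of F. CPM use TMM-scaled totals within each table, and levels per kilobase divide by the length in the table. Alternatives were DESeq2 1.42.0, its size factors, no filter, members summed with their copies, a replicate block and each library left out. Copies were not summed in the contrasts of β-glucan effects. Leaving out HSC libraries PBS 2 and β-glucan 3 of day 28 together was chosen after seeing the data. The fits were tested on simulated data. Copies are other loci that share at least 10% of a member's 50-base windows. For Gapdh these were 29 of 222 other genes that share any window. A separate fit summed members with the pseudogenes named after them.

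The members and the gene lists were chosen with earlier results of these data known. All 37 members could be named; values per library are given for the 10 of smallest p called in a β-glucan comparison and, between MPP and HSC, for members called in both arms, and for a few others chosen after their values were seen. Of 16 erythroid markers listed, Ahsp was not matched. Replicate numbers come from the titles. Same-numbered libraries deviated together only for MPP against HSC in β-glucan mice (correlations of deviations 0.142 to 0.260 in 4 pairs), where the report gives the calls that a fit with the replicate as a block adds.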

Additional observations from a re-analysis of the deposited data

Results flagged for a closer look

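Of 257 groups of 4 libraries examined for the 37 genes, 12 held a library far from the other 3, as chance alone gives in about 1 group in 20. In PBS HSC at day 28, the second library had Pkm at 1945 CPM (others 1375 to 1422) and Pfkfb4 at 131 CPM (others 62.6 to 69.3), the third had Slc16a1 at 79.2 CPM (others 53.3 to 55.5) and the fourth had Pfkfb2 at 1.54 CPM (others 1.83 to 1.88). In PBS HSC after 5-FU, the fourth library was high for Slc2a3 at 508 CPM (others 304 to 334), Pklr at 5.74 CPM (others 4.15 to 4.25) and Taldo1 at 1312 CPM (others 997 to 1045). The second β-glucan library after 5-FU had Bpgm at 206 CPM (others 217 to 219) and Pgd at 638 CPM (others 482 to 508). In MPP, the fourth β-glucan library was low for Pfkm at 35.8 CPM (others 38.9 to 39.3) and Pfkfb4 at 44.2 CPM (others 51.6 to 52.8), and the third PBS library had Tkt at 1089 CPM (others 1021 to 1029.6).

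The β-glucan effect differed between HSC at day 7 and HSC at day 28 for 13 members, by the contrast of the 4 groups in edgeR. The day 7 effect minus the day 28 effect (log2, ± standard error) was 1.13 ± 0.29 for Pfkfb4, 1.05 ± 0.24 for Aldoc, 0.68 ± 0.15 for G6pdx, 0.65 ± 0.16 for Hk3, 0.60 ± 0.16 for Pkm, 0.59 ± 0.14 for Gpi1, 0.51 ± 0.12 for Slc2a1, 0.51 ± 0.12 for Eno1, 0.51 ± 0.13 for Pgk1, 0.50 ± 0.10 for Pfkp and 0.36 ± 0.09 for Ldha. Without the second β-glucan library of day 7 that of Hk3 was 0.43 ± 0.13 and not called (adjusted p = 0.0978). The difference was -1.04 ± 0.20 for Slc16a1 and -1.12 ± 0.20 for Bpgm. For Eno1, Pgk1 and Pkm, whose copies took different shares of counts on the 2 days, the contrast was not refitted with copies summed. At day 28, 10 of the 12 members higher at day 7 had a log2 fold change below 0, among them Aldoc (0.51 ± 0.13 on day 7 and -0.51 ± 0.20 on day 28), Pfkfb4 (0.65 ± 0.14 and -0.45 ± 0.21) and Pkm (0.47 ± 0.09 and -0.11 ± 0.12). The second PBS library of day 28 was high for Pfkfb4 (131 CPM, others 62.6 to 69.3) and Pkm (1945 CPM, others 1375 to 1422). The Pkm mean in β-glucan HSC was 1443 CPM that day, above those other PBS values. With 1 library left out, the contrast was 0.80 to 1.28 for Pfkfb4 (called in 9 of 15 fits) and 0.47 to 0.68 for Pkm (called in 5). Slc16a1 stood at -0.72 ± 0.14 on day 7 and 0.34 ± 0.13 on day 28. None of these was called at day 28.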

How the results depend on the processing

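No call of a member reversed its direction under any setting tried. At day 7, calls over all genes were 1711 with DESeq2 and 645 with the replicate block (500 to 1252 with 1 library left out), and members called were 13 higher and 3 lower with DESeq2 and 1 higher and 2 lower with the block (4 to 12 higher and 2 lower with 1 library left out). In HSC at day 28, calls were 182 with no filter, 589 with DESeq2, 14 with the block and 669 without the second PBS and the third β-glucan library (1 to 51), of which members were 2 higher with DESeq2 and 1 lower without both libraries (0 otherwise). In MPP they were 1181 with no filter and 1301 with DESeq2 (164 to 1010), with 4 members higher and 4 lower in both (0 to 4 and 0 to 3). After 5-FU they were 110 with no filter, 147 with DESeq2 and 16 with the block (2 to 61), with 1 member lower by DESeq2 (0 otherwise). Between MPP and HSC of PBS mice (2004 to 5050 genes), 2 members were higher with no filter, DESeq2, the block or copies summed and 4 without both libraries (1 to 4), and 6 to 8 lower. With β-glucan (4605 to 5684) 13 were lower with the block (6 to 9) and 2 to 5 higher. For the effect of MPP minus HSC, calls were 2 with no filter, DESeq2 or the block and 34 without both libraries (1 to 3). For day 7 minus day 28 they were 1432 with DESeq2 (445 to 1051), with 5 members higher under the block (2 to 12) and 2 lower. For 5-FU minus day 28 they were 59 with no filter, 151 with DESeq2, 7 with the block and 274 without both (6 to 49). The causes were not tested. Apart from MPP against HSC with β-glucan, correlations of same-numbered libraries ran -0.0792 to 0.194 and overlapped those of differently numbered libraries. In MPP against HSC of PBS mice they were all positive (0.041 to 0.134, against -0.171 to 0.128 for other pairs). A shared mouse, batch or day is thus not excluded for these comparisons. The block left 1 member higher at day 7, G6pdx. Without a filter Pgam1 was not called at day 7 (adjusted p = 0.0659), nor Hk1 between PBS MPP and HSC (0.0658), nor Ldha and Hk3 between those of β-glucan mice (0.0737 and 0.0565). Eno2 was below the count filter and not tested in the comparisons with MPP libraries (no more than 6 counts in an MPP library).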

Other observations

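Listed counts do not rank Gapdh, Pgk1, Pgam1 and Eno1, since reads that match their copies cannot be placed for certain. Per kilobase, Pkm, Aldoa and Taldo1 led the list at day 7 by listed counts. They had 962, 641 and 568 CPM per kb in β-glucan and 696, 513 and 495 in PBS libraries. Bpgm had 113 CPM per kb in β-glucan and 292 in PBS libraries there. In MPP at day 28, the share of Pfkfb4 among the Pfkfb genes was 71.7 ± 0.907% in β-glucan and 74.6 ± 0.503% in PBS libraries, and that of Pfkfb3 26.9 ± 1.01% and 23.9 ± 0.536%, without overlap. At day 7, Pfkfb4 held 81.5 ± 1.52% in β-glucan and 75.3 ± 2.65% in PBS libraries, again without overlap and in the other direction. In HSC at day 28, Hk2 held 6.93 ± 0.397% of the hexokinase level in β-glucan and 5.78 ± 0.700% in PBS libraries. No test was made of these shares.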
